A study of Rattus norvegicus with 88 samples.

Results

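The glucocorticoid receptor system was examined in the infralimbic cortex (IL) of the rat through 6 genes: the receptors Nr3c1 (ENSRNOG00000014096) and Nr3c2 (ENSRNOG00000034007) and the target genes Fkbp5 (ENSRNOG00000022523), Sgk1 (ENSRNOG00000011815), Tsc22d3 (ENSRNOG00000056135) and Cdkn1a (ENSRNOG00000000521). The genes were picked by these identifiers from a table of 17252 genes, and all 6 had a row. IL is a medial prefrontal area. Its RNA was sequenced in outbred Heterogeneous Stock (HS) rats, which descend from inbred founder strains, as 1 polyadenylated RNA library per rat from tissue dissected on both sides of the brain. The rats were group housed and had received neither drug nor behavioral testing, so no group was a treatment. The labels described 88 libraries, of which 81 were analysed, from 40 females and 41 males. They fell into rat batches 2 (16 rats), 3 (25), 4 (24), 5 (1) and 6 (15). The labels do not say what a rat batch shared, and they give no age or time of day for single rats.

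Corticosterone, the main glucocorticoid of the rat, enters cells and binds receptors that then move to the nucleus and change transcription. Nr3c1 encodes the glucocorticoid receptor. Nr3c2 encodes the mineralocorticoid receptor, which binds corticosterone more tightly and in the brain is occupied at lower hormone levels. Fkbp5, Sgk1, Tsc22d3 (also known as GILZ) and Cdkn1a are widely used as genes that glucocorticoids induce, and each also responds to other signals.

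Each value is the log2 of 1 plus a read count that was adjusted to a common upper quartile across libraries. They were not divided by transcript length, so levels are compared between rats and not between genes. Depth, estimated from the spacing of the low values, had a mean of 17.9 ± 3.77 M reads (M, mega; SD, n = 81) and ranged from 5.95 M in male 14 of batch 4 to 31.8 M. The column names of the table ran alphabetically and started over 2 times, which gave 3 runs of columns with 22, 16 and 43 libraries. What a column run stands for was not stated. Batch 2 lay almost wholly in run 1 (15 of 16 rats), batches 4, 5 and 6 lay wholly in run 3, and batch 3 was spread over runs 1, 2 and 3 with 7, 15 and 3 rats. Of the cell type markers that could be named, those of excitatory neurons (Neurod6, mean log2 value 10.9) and inhibitory neurons (Slc32a1, 10.1) were present, and no marker of striatal neurons was among the genes that could be named.

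The 6 genes differed in how far they varied between rats. Nr3c1 was the steadiest, with a mean log2 value of 10.49 ± 0.18 (SD, n = 81). After rat batch, sex and column run were taken out, its residual SD was 0.13, at percentile 23.3 of the 13048 genes whose average log2 level was 5 or more and at percentile 47.7 of the 1892 genes whose mean lay within 0.5 log2 units of its own, close to the middle. Nr3c2 was at 7.91 ± 0.33 (SD, n = 81), with a residual SD of 0.28 at percentile 81.3 among genes of near level. Its scaled median absolute deviation, which single rats move less, was lower at 0.19.

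All 4 targets varied more than most genes of their own level. Cdkn1a, which encodes a cyclin-dependent kinase inhibitor, was at 7.78 ± 0.71 (SD, n = 81). Its adjusted counts ran from 58 in male 7 to 470 in male 32, and its residual SD of 0.56 was at percentile 97.5 of all genes and at percentile 98.1 of the 2030 genes whose mean lay within 0.5 log2 units of its own. Sgk1, which encodes a kinase that regulates ion channels and transporters, was at 10.03 ± 0.43 (SD, n = 81) with a residual SD of 0.36, at percentile 98.4 among genes of near level. Fkbp5 encodes a cochaperone that lowers the affinity of the glucocorticoid receptor for hormone. Its level was 9.85 ± 0.35 (SD, n = 81) and its residual SD of 0.29 was at percentile 95.7 among genes of near level. Tsc22d3, which encodes a leucine zipper protein that restrains inflammatory transcription factors, was at 10.56 ± 0.33 (SD, n = 81), and its residual SD of 0.26 was at percentile 95.6. The SD that read counting alone would give was between 0.04 and 0.11 for the 6 genes, below the residual SD of each.

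The starts of 3 targets are shown, and that of Cdkn1a is described without its bases. Each line holds the 250 bases before a transcription start from RefSeq (build GRCr8), on the minus strand, with capitals marking TATAAA (the TATA box), the box CCAAT and the GC-rich motif GGCGGG on either strand. The Sgk1 window is chr1:24804832-24805081, the Tsc22d3 window is chrX:109010035-109010284 and the Fkbp5 window is chr20:6543556-6543805.
Sgk1: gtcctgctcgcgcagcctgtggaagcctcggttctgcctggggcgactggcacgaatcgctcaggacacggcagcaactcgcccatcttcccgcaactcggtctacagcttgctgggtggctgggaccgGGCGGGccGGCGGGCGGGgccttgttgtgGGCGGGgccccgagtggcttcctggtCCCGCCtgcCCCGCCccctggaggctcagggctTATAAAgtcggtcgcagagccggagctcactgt
Tsc22d3: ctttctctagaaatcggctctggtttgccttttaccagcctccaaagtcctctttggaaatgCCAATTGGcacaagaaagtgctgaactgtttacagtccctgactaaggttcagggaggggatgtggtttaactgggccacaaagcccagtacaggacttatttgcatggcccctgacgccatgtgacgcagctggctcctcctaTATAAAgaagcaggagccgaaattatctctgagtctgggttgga
Fkbp5: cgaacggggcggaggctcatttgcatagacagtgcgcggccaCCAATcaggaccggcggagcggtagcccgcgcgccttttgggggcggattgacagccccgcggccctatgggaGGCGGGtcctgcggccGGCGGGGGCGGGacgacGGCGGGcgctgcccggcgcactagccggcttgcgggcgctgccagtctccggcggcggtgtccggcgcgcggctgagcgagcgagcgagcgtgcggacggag
Sgk1 and Tsc22d3, the pair of members with the closest co-variation, each had a start with TATAAA, whose first base lay 33 and 44 bases before the start. The Sgk1 window had no CCAAT and 6 matches to GGCGGG, some of them overlapping. In the Tsc22d3 window CCAAT matched 2 times on overlapping bases, once on each strand, and GGCGGG did not occur. The Fkbp5 window had 4 matches to GGCGGG, 1 CCAAT and no TATAAA. The Cdkn1a window had no match to any of the 3 motifs. Neither gene of the other co-varying pair, Fkbp5 and Cdkn1a, thus had TATAAA in its window. A link of these motifs to co-variation was not tested. Sgk1 and Tsc22d3 had 3 windows each in the RefSeq table, of which the most downstream is shown, and Fkbp5 and Cdkn1a had 1 each.

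Among 33469 windows of this length, TATAAA occurred in 12.9%, CCAAT in 34.02% and GGCGGG in 29.4%. Windows were given for 5 of the 6 genes, 10 in all, and of these TATAAA occurred in 3, CCAAT in 2 and GGCGGG in 6. The inverted repeat of the glucocorticoid response element, AGAACA followed by TGTTCT after any 3 bases, occurred in 0.0120% of all windows and in 0 of the 10. Its arm AGAACA, on either strand, occurred in 17.5% and in 0 of the 10. These are matches of letters in short windows and say nothing of binding elsewhere.

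**Figure D1:**
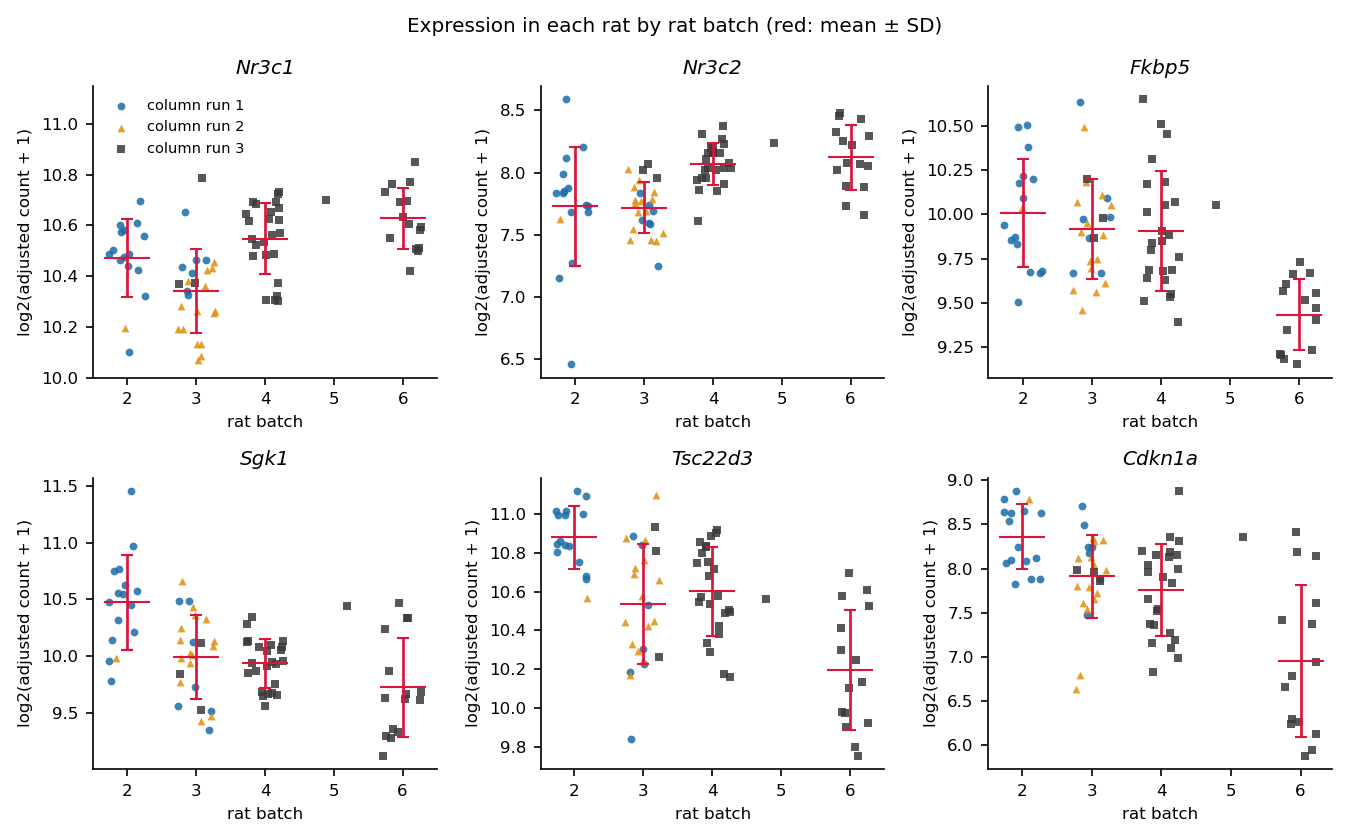
Log2 of the adjusted count plus 1 (y axis) of the 6 genes in each of the 81 rats, by rat batch (x axis), with the column run shown by colour and symbol and the mean ± SD of each batch in red. By their means Cdkn1a, Fkbp5, Tsc22d3 and Sgk1 were lowest in batch 6 (6.95, 9.44, 10.20 and 9.73). Sgk1 and Tsc22d3 were highest in batch 2 (10.47 and 10.88).

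The first comparison asked whether the 6 genes differed between rat batches. With sex as a covariate, all 6 passed the test between batches 2, 3, 4 and 6 (limma moderated F test, adjusted p-value under 0.05), which 57.6% of all genes did. The count is therefore read by direction and by what column run leaves of it, gene by gene.

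Nr3c1 was at 1098 to 1657 adjusted counts in batch 2 (median 1436) and at 1072 to 1766 in batch 3 (median 1315). It was at 1260 to 1698 in batch 4 (median 1514) and at 1368 to 1847 in batch 6 (median 1559). Batch 3 was lowest and batch 6 highest, and all batches overlapped. Batch 6 exceeded batch 3 by 0.29 on the log2 scale with a standard error (SE) of 0.05 (limma adjusted p = 4.95e-07), a 1.22-fold difference. Of all genes 49.0% passed between these 2 batches. Batch and run overlap, however, and with column run in the model batch no longer passed (adjusted p = 0.537, limma). Column run given batch did pass, and Nr3c1 was the 1 member of 6 for which it did (limma adjusted p = 0.00378, 20.98% of the variance left by batch and sex). Of all genes 16.8% passed that test. Without batch 3, the batch spread over all 3 runs, only batch 2 holds rats of more than 1 run. These are 15 rats in run 1 and 1 in run 2, so a fit without batch 3 cannot decide the matter.

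The test of column run given batch rested mostly on batch 3, so the Nr3c1 values inside batch 3 are not separate evidence. Inside batch 3 the rats share a batch label. There the mean log2 value was 10.44 in run 1 (7 rats), 10.26 in run 2 (15 rats) and 10.51 in run 3 (3 rats). Run 2 minus run 1 was -0.18 on the log2 scale (SE 0.06). Over the 3 runs the F test within batch 3 gave an adjusted p of 0.0303 (limma), which 16.9% of genes also passed, while no single pair of runs passed, with the difference of run 3 minus run 2 at 0.25 (SE 0.09, limma adjusted p = 0.0631).

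Nr3c2 was at 87 to 384 adjusted counts in batch 2 (median 220) and at 151 to 268 in batch 3 (median 213). It was at 195 to 330 in batch 4 (median 265.5) and at 201 to 355 in batch 6 (median 269). Both the lowest rat (male 38) and the highest (male 1) belonged to batch 2, and the medians of batches 4 and 6 were above those of batches 2 and 3. Batch 4 exceeded batch 3 by 0.35 (log2, SE 0.08, limma adjusted p = 0.000168) and batch 6 exceeded batch 2 by 0.39 (SE 0.10, adjusted p = 0.00122, limma). Of all genes 47.1% and 40.8% passed these contrasts. Apart from the 3 rats of batch 3 in run 3, these contrasts set run 3 against runs 1 and 2. Inside batch 3 the mean log2 value of Nr3c2 was 7.62 in run 1, 7.71 in run 2 and 8.02 in run 3. Run 3 exceeded run 1 there by 0.42 (SE 0.13, limma adjusted p = 0.0756) and run 2 by 0.32 (SE 0.12, adjusted p = 0.0842), differences of the size found between batches, and the F test over runs gave an adjusted p of 0.0629 (limma). Neither term passed with the other in the model (limma adjusted p = 0.278 for run and 0.903 for batch). Without male 38 the test between batches gave an adjusted p of 1.77e-06 (limma).

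Fkbp5 was at 725 to 1453 adjusted counts in batch 2 (median 1015), 704 to 1589 in batch 3 (median 955), 672 to 1605 in batch 4 (median 918.5) and 569 to 849 in batch 6 (median 709). Batches 2, 3 and 4 covered much the same range, and batch 6 reached only the lower end of it. With column run in the model Fkbp5 still differed between batches (limma adjusted p = 0.00743), as did Tsc22d3 (0.000318) and Cdkn1a (0.0121), which makes 3 of the 6 members where 2.76% of all genes passed. The calls rest on batches 4 and 6. Without batch 6 none of the 3 passed (limma adjusted p = 0.993 for Fkbp5, 0.386 for Tsc22d3 and 0.861 for Cdkn1a). Without batch 4 only Tsc22d3 did (adjusted p = 0.0334, limma), with Fkbp5 at 0.149 and Cdkn1a at 0.155.

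Tsc22d3 was at 1514 to 2226 adjusted counts in batch 2 (median 1850.5), 915 to 2194 in batch 3 (median 1481), 1144 to 1936 in batch 4 (median 1525.5) and 862 to 1657 in batch 6 (median 1124). It was highest in batch 2 and lowest in batch 6, and the highest rat of batch 6 (1657) was below the median of batch 2. Batch 3 minus batch 2 was -0.37 (log2, SE 0.08, limma adjusted p = 0.0161), in a comparison that 0.962% of genes passed. Batch 6 minus batch 2 was -0.71 (SE 0.09, limma adjusted p = 2.56e-09), a 1.64-fold difference across column runs, in a comparison that 40.8% of genes passed.

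Sgk1 was at 879 to 2810 adjusted counts in batch 2 (median 1460), 653 to 1623 in batch 3 (median 1046), 757 to 1300 in batch 4 (median 984) and 557 to 1416 in batch 6 (median 794). The batches overlapped, with batch 2 highest. Batch 3 minus batch 2 was -0.50 (log2, SE 0.11, limma adjusted p = 0.0174), where 0.962% of all genes passed. With column run in the model batch gave an adjusted p of 0.0696 (limma), short of the threshold, and without batch 2 the test between batches gave 0.0793.

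Cdkn1a was at 225 to 468 adjusted counts in batch 2 (median 336), 99 to 416 in batch 3 (median 252), 113 to 470 in batch 4 (median 232.5) and 58 to 341 in batch 6 (median 109). Batch 6 was lowest by its median and also the most spread, with an SD of 0.85 against 0.37 to 0.52 in batches 2, 3 and 4. Batch 6 minus batch 2 was -1.45 (log2, SE 0.20, limma adjusted p = 8.97e-09), a 2.74-fold difference across column runs, where 40.8% of all genes passed. The 1 rat of batch 5, a female, had 327 adjusted counts of Cdkn1a, 1390 of Sgk1 and 1061 of Fkbp5, all inside the range of batch 4 except Sgk1, which was above it.

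Batches 6 and 4 could be compared inside a single column run, run 3, with 15 and 24 rats. This comparison was added after the data were seen. It uses rats that also entered the test of batch given column run, so it is not separate evidence. Fkbp5, Tsc22d3 and Cdkn1a were lower in batch 6, which makes 3 of 6 members, where 3.46% of all genes differed and 1.10% were lower. The median difference was -0.31 over the 6 members, -0.44 over the 4 targets and 0.02 over all genes. In dissected tissue, fewer cells of a type and less RNA per cell cannot be told apart.

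Fkbp5 was at a mean log2 value of 9.44 in batch 6 and 9.91 in batch 4, a difference of -0.47 (SE 0.09, limma adjusted p = 0.00597), or 1.39-fold. All 15 rats of batch 6 were below the batch 4 median, and 15 of the 24 rats of batch 4 were above every rat of batch 6. Tsc22d3 was at 10.20 and 10.60, a difference of -0.40 (SE 0.08, limma adjusted p = 0.00654), with 12 of 15 rats of batch 6 below the batch 4 median and 8 of them below every rat of batch 4. Cdkn1a was at 6.95 and 7.76, a difference of -0.80 (SE 0.21, limma adjusted p = 0.0234), or 1.74-fold, with 12 of 15 rats below the batch 4 median. The groups still overlapped for all 3 genes.

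Sgk1 had a difference of -0.21 (SE 0.10, limma adjusted p = 0.249) and did not pass. Neither receptor passed. The difference was 0.08 for Nr3c1 (95% interval -0.00071 to 0.16, limma adjusted p = 0.285) and 0.05 for Nr3c2 (-0.09 to 0.19, adjusted p = 0.746). The intervals leave out differences of the size found for Fkbp5 in either receptor. With log2 depth as a covariate, or without male 14, the same 3 targets passed. Within females alone or males alone none of the 6 passed, in fits where 0.0174% and 0.0464% of all genes did. The difference of Cdkn1a was -0.50 in females (SE 0.26) and -1.15 in males (SE 0.29), and that of Fkbp5 was -0.40 (SE 0.13) and -0.56 (SE 0.12). The differences were not shown to depend on sex, since over the 4 large batches no gene passed the test of an interaction between sex and batch (limma, smallest adjusted p of a member 0.984).

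A gene induced by neuronal activity moved in the same direction. Fosb, which encodes a subunit of the AP-1 transcription factor, was at 9.29 in batch 6 and 10.30 in batch 4 (difference -1.01, SE 0.24, limma adjusted p = 0.0166). Of the 6 activity-induced genes listed, Fosb was the 1 that could be named. With the value of Fosb as a covariate none of the 6 members passed between batches 6 and 4, and 2 genes of the whole table did, against 597 without it. The difference was then -0.44 for Fkbp5 (SE 0.11, against 0.09 without Fosb), -0.25 for Tsc22d3, -0.17 for Cdkn1a and -0.02 for Sgk1. The estimate of Fkbp5 moved little, and those of Tsc22d3, Cdkn1a and Sgk1 came closer to 0. The part of neuronal activity in the differences was not tested. None of the 7 cell type markers with a row passed between batches 6 and 4, and 5 of them had lower means in batch 6. The differences were -0.16 (SE 0.11) and -0.10 (SE 0.06) for the microglial genes P2ry12 and C1qa, and -0.12 (SE 0.08) for Neurod6. They were -0.13 (SE 0.07) and -0.02 (SE 0.05) for the inhibitory neuron genes Vip and Slc32a1. Mal, the oligodendrocyte marker with a row, differed by 0.02 (SE 0.15), and the astrocyte marker Aldh1l1 by 0.01 (SE 0.06). The part of cell makeup in the differences was not tested.

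**Figure D2:**
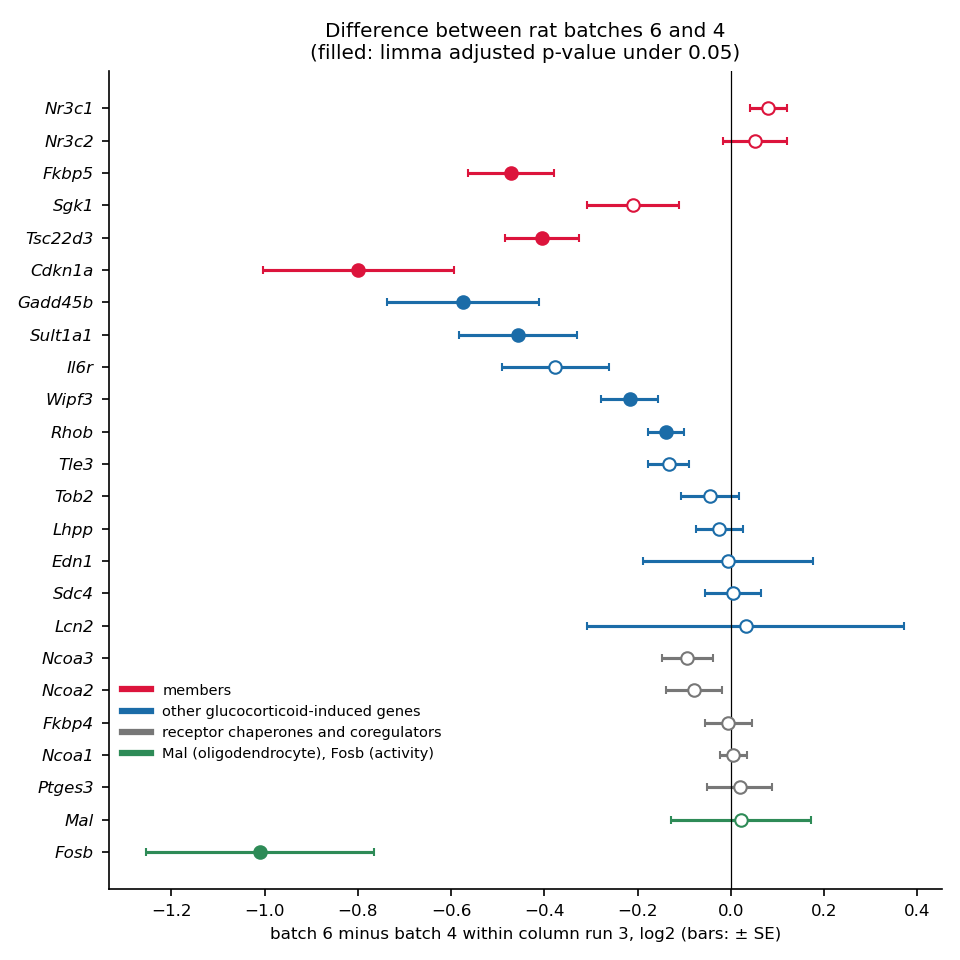
Difference between rat batches 6 and 4 within column run 3 (x axis, log2, bars ± SE, 15 and 24 rats) for the 6 members, other listed genes of the pathway, Mal and Fosb. Filled points have a limma adjusted p-value under 0.05, among them Fkbp5, Tsc22d3 and Cdkn1a at -0.47, -0.40 and -0.80.

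Batches 2 and 3 could be compared inside run 1, with 15 and 7 rats. No gene of the table passed there (limma, 784 genes at an unadjusted p under 0.05), the members included. Tsc22d3 was at 1621 to 2226 adjusted counts in batch 2 (median 1859) and at 915 to 1890 in batch 3 (median 1265), and the difference of 0.56 (log2, SE 0.12) had an adjusted p of 0.457 (limma). Sgk1 was 0.65 higher in batch 2 (SE 0.21, limma adjusted p = 0.879). Both differences had the sign seen over all runs, in a fit that includes these same rats.

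The second comparison asked whether the 6 genes differed between the sexes. With batch and column run as covariates none of the 6 passed (limma moderated test, 0.249% of all genes did, and 1 member had an unadjusted p under 0.05). That member was Nr3c1, at a median of 1488.5 adjusted counts in females and 1435 in males, with a male minus female difference of -0.07 on the log2 scale (95% interval -0.13 to -0.01, limma adjusted p = 0.492). For Nr3c2 the male minus female difference was -0.02 (-0.14 to 0.11), for Fkbp5 0.09 (-0.04 to 0.22), for Sgk1 -0.05 (-0.21 to 0.11) and for Tsc22d3 -0.11 (-0.23 to 0.01). Cdkn1a had the widest interval, -0.43 to 0.07, around a difference of -0.18.

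The third comparison asked whether the 6 genes rose and fell together over rats once batch, sex and column run were taken out. Of the 15 pairs of members 2 co-varied, both of them pairs of targets: Sgk1 with Tsc22d3 and Fkbp5 with Cdkn1a. A pair counts here when each gene, entered as a covariate for the other, passed at an adjusted p under 0.05 over all 17251 other genes (limma). A gene that passes with a member as covariate is said to follow it: 0.539% of genes followed Sgk1, 1.32% Tsc22d3, 0.626% Fkbp5, 3.05% Cdkn1a, 30.5% Nr3c1 and 28.2% Nr3c2.

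Sgk1 and Tsc22d3 had a Pearson r of 0.58 (95% interval 0.40 to 0.71, permutation p = 1e-05, the smallest that 100000 permutations within runs can give) and a Spearman rho of 0.56 (permutation p = 1e-05). The larger of the limma adjusted p-values was 4.82e-05. Within runs 1, 2 and 3, r was 0.53, 0.56 and 0.58. Without the 2 rats farthest from the Sgk1 or the Tsc22d3 median it was 0.59 and 0.57. By r Tsc22d3 was gene 12 of 13047 for Sgk1, and Sgk1 was gene 16 for Tsc22d3. Leaving out batch 3 gave an r of 0.48 with an adjusted p of 0.105 (limma).

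Fkbp5 and Cdkn1a had an r of 0.41 (95% interval 0.20 to 0.58, permutation p = 0.00017), a rho of 0.46 (permutation p = 1e-05) and a limma adjusted p of 0.0344. Within runs r was 0.60, 0.47 and 0.34, and without the 2 rats farthest from the Fkbp5 or the Cdkn1a median it was 0.45 and 0.40. Cdkn1a was gene 69 of 13047 for Fkbp5, and Fkbp5 was gene 164 for Cdkn1a. This pair lay closer to the threshold, and it did not pass when batch 2, batch 3 or batch 4 was left out (r of 0.38, 0.38 and 0.45, limma adjusted p = 0.218, 0.429 and 0.103).

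Other pairs of targets did not pass. Fkbp5 and Sgk1, which each belonged to a co-varying pair, had an r of -0.01 (95% interval -0.24 to 0.22), which leaves out an r as high as that of the pairs that passed. Fkbp5 and Tsc22d3 had an r of 0.14 (-0.09 to 0.36). Cdkn1a had an r of 0.30 with Tsc22d3 (permutation p = 0.0076, limma adjusted p = 0.165) and of 0.26 with Sgk1 (permutation p = 0.0158, adjusted p = 0.368), both short of the threshold over all genes. These were -0.23 and -0.16 in run 1, 0.61 and 0.39 in run 2, and 0.43 and 0.48 in run 3, so run 1 differed in sign from the other two.

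No pair of a receptor and a target passed. The 8 such pairs had r between -0.19 and 0.09, with a median of -0.06, against a median of 0.28 over the 6 pairs of targets. The lowest was Nr3c2 with Cdkn1a, at -0.19 (95% interval -0.40 to 0.04, permutation p = 0.0515). Nr3c1 had an r of -0.16 with Fkbp5 (-0.38 to 0.07) and of -0.01 with Tsc22d3 (-0.24 to 0.22). The receptors had an r of 0.22 with each other (permutation p = 0.0487, limma adjusted p = 0.144), which fell to 0.08 without the 2 rats farthest from the Nr3c1 median.

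**Figure D3:**
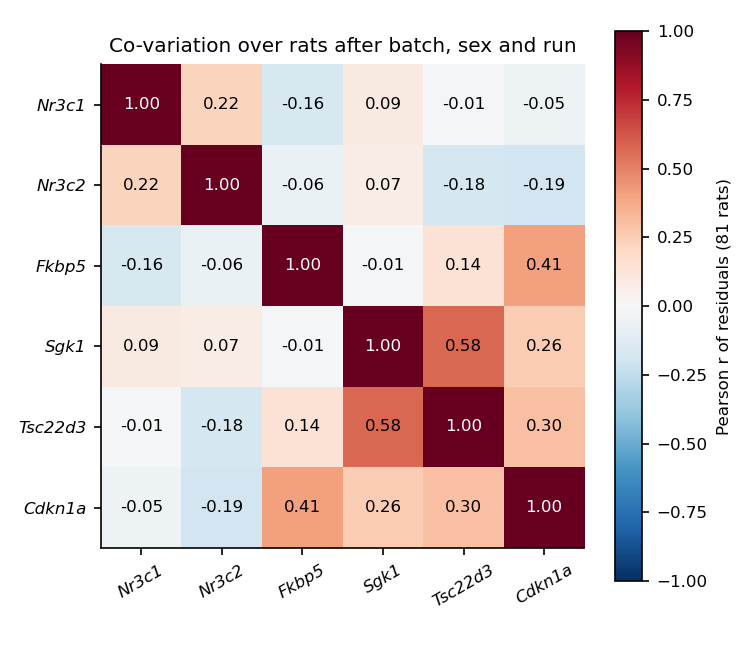
Pearson r between each pair of the 6 genes over 81 rats after rat batch, sex and column run were taken out. The cells of Sgk1 with Tsc22d3 (0.58) and of Fkbp5 with Cdkn1a (0.41) hold the pairs that passed the limma test over all genes, and the receptor rows lie between -0.19 and 0.22.

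**Figure D4:**
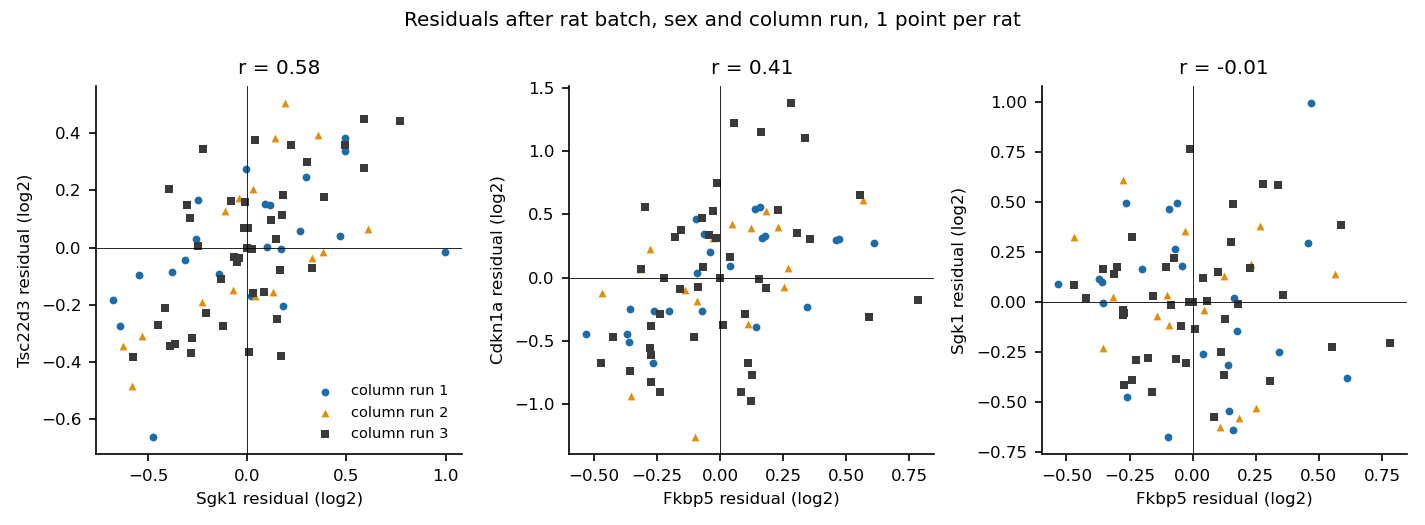
Residual log2 values of 3 pairs of members (1 gene on each axis), 1 point per rat (n = 81), with column run by colour and symbol. Sgk1 and Tsc22d3 rise together in each of the 3 runs (r of 0.53, 0.56 and 0.58), and Fkbp5 and Sgk1 have an r of -0.01.

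Receptors and targets also differed in how many genes moved with them. An r beyond 0.5 in either direction was found for 1140 of 13047 genes with Nr3c1 (8.74%) and 1227 with Nr3c2 (9.40%), but for 30 with Fkbp5, 26 with Sgk1, 50 with Tsc22d3 and 87 with Cdkn1a. The residuals had an r with log2 depth of 0.19 for Nr3c1, -0.17 for Nr3c2 and 0.16 for Tsc22d3, and of 0.09 for Fkbp5, 0.09 for Cdkn1a and -0.01 for Sgk1. The part of depth in these counts was not tested. The gene most like Nr3c1 was ENSRNOG00000029885 (r = 0.80) and the one most opposed was Dgkz (-0.72), which encodes a diacylglycerol kinase. The closest to Nr3c2 was ENSRNOG00000006490 (0.78), to Fkbp5 ENSRNOG00000018969 (0.73), to Sgk1 ENSRNOG00000058186 (0.75), to Tsc22d3 ENSRNOG00000006972 (0.72) and to Cdkn1a ENSRNOG00000047466 (0.81). Each is a Pearson r of residuals over 81 rats, picked as the highest of 13047, and no symbol was paired with the identifiers printed in the sources used here.

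Other genes that glucocorticoids induce were looked up by symbol. Of 32 listed, 11 could be tied to a row, and since the pairs of identifier and symbol used for this come mainly from genes with genetic effects on expression, the 11 are not a random part of the list. With Fkbp5 3 of the 11 co-varied (limma, positive for 0.458% of all genes): Wipf3 (r = 0.59), which encodes a WASP-interacting protein, Sult1a1 (0.59), which encodes a sulfotransferase, and Il6r (0.55), which encodes the interleukin-6 receptor. With Sgk1 1 of 11 did, the small GTPase gene Rhob (0.59, against 0.493% of all genes). With Tsc22d3 2 of 11 did (0.835% of all genes), Rhob (0.42) and Gadd45b (0.52), a gene of the response to DNA damage and stress. With Cdkn1a 3 of 11 did (1.73% of all genes), Gadd45b (0.66), Sult1a1 (0.40) and Il6r (0.36). Gadd45b had an r of 0.08 with Fkbp5. Il6r was named after its values were seen.

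Over the 11 genes the median r was 0.08 with Fkbp5, 0.12 with Sgk1, 0.13 with Tsc22d3 and 0.08 with Cdkn1a, where the medians over all genes were -0.01, -0.02, -0.03 and -0.01. With Nr3c1 2 of the 11 co-varied, both negatively (15.1% of all genes), among them the corepressor gene Tle3 (r = -0.50), and with Nr3c2 1 did, positively (15.6%). Between batches 6 and 4, 4 of the 11 were lower (1.10% of all genes) and none higher (2.36%): Gadd45b at -0.57 (limma adjusted p = 0.0396), Sult1a1 at -0.46 (0.0361), Wipf3 at -0.22 (0.0383) and Rhob at -0.14 (0.0336). The median difference of the 11 was -0.13, against 0.02 over all genes. The list was chosen with earlier results of these data known. The shares are over all genes and not over the genes that could be named, from which the 11 come. Sdc4, which encodes a syndecan, was at 9.35 in batch 6 and 9.34 in batch 4.

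**Figure D5:**
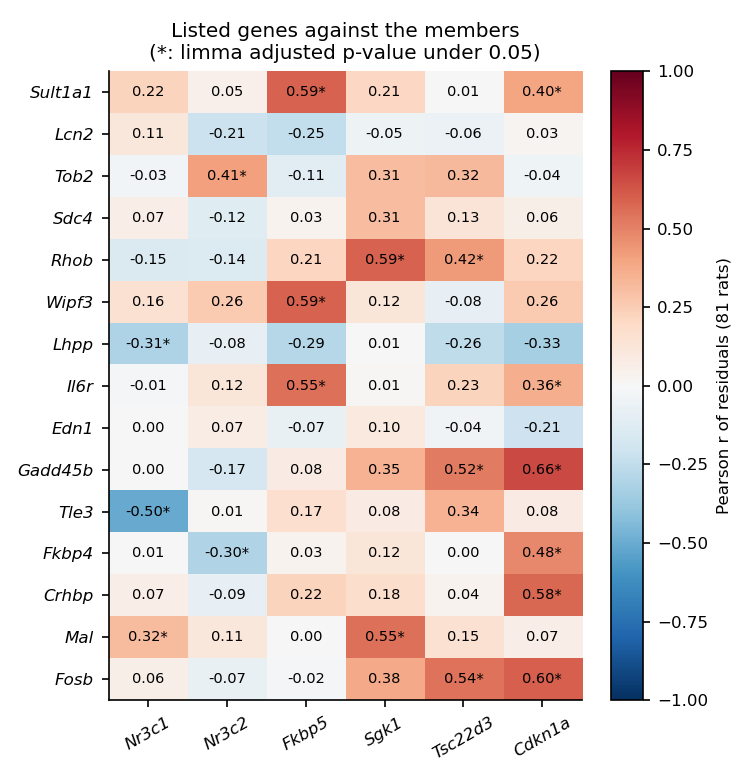
Pearson r over 81 rats between each of the 6 members (columns) and a part of the listed genes (rows), after batch, sex and column run. The rows are the 11 other glucocorticoid-induced genes that could be tied to a row, with Fosb, Mal, Fkbp4 and Crhbp. Wipf3, Sult1a1 and Il6r lie at 0.55 to 0.59 with Fkbp5, Rhob at 0.59 with Sgk1, and Gadd45b and Fosb at 0.66 and 0.60 with Cdkn1a.

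Partners of the receptor were looked up in the same way. Of 13 listed chaperones and coregulators 5 had a row, and none differed between batches 6 and 4 (limma, median difference -0.01). Nr3c2 co-varied with the coactivator genes Ncoa1 (r = 0.47), Ncoa2 (0.71) and Ncoa3 (0.48), and negatively with the cochaperone genes Fkbp4 (-0.30) and Ptges3 (-0.34), in a test that 28.2% of genes passed. Nr3c1 co-varied with Ptges3 (0.46). Fkbp4, the counterpart of Fkbp5 in the receptor complex, had an r of 0.03 with Fkbp5 and 0.48 with Cdkn1a (limma adjusted p = 0.00206). Of 8 genes of steroid and hormone supply 1 had a row, Crhbp, which encodes the binding protein of corticotropin-releasing hormone, and it followed Cdkn1a (r = 0.58, limma adjusted p = 1.86e-05).

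Of 7 listed relatives of the members 4 had a row, and none followed the member it is related to. Tsc22d1, a relative of Tsc22d3, had an r of 0.41 with Tsc22d3 (limma adjusted p = 0.0502) and of 0.44 with Cdkn1a (adjusted p = 0.0149), and a batch 6 minus batch 4 difference of -0.10 (SE 0.02, adjusted p = 0.0106, limma). Cdkn1b and Cdkn1c, which like Cdkn1a encode cyclin-dependent kinase inhibitors, had r of 0.12 and -0.01 with it. Fkbp1a had an r of -0.07 with Fkbp5.

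Markers of cell types and activity stood beside some of these values. Mal, which encodes a myelin protein, followed Sgk1 over rats (r = 0.55, limma adjusted p = 0.000149) and had r of 0.15 with Tsc22d3 and -0.0049 with Fkbp5. Fosb followed Tsc22d3 (0.54, adjusted p = 0.000182) and Cdkn1a (0.60, adjusted p = 3.09e-06) and had an r of -0.02 with Fkbp5 (limma). Vip, a marker of a class of inhibitory neurons, followed Cdkn1a (0.47, adjusted p = 0.00223, limma). Slc32a1, the other inhibitory neuron marker with a row, did not (0.21, limma adjusted p = 0.389). Markers also followed the receptors. Mal (0.32) and Slc32a1 (-0.38) followed Nr3c1, in a test that 30.5% of genes passed. Vip (-0.48) and C1qa (-0.33) followed Nr3c2, where 28.2% of genes passed. With both Fosb and Mal as covariates Sgk1 and Tsc22d3 had an r of 0.47 (limma adjusted p = 0.0374) and Fkbp5 and Cdkn1a one of 0.53 (0.000537), while Tsc22d3 and Cdkn1a were at -0.05 and Sgk1 and Cdkn1a at -0.02. Without these covariates the 2 pairs that passed had r of 0.58 and 0.41. Fosb and Mal were the 1 activity-induced gene and the 1 oligodendrocyte marker with a row, and this setting was added after the data were seen. The part of neuronal activity and cell makeup in the co-variation was not tested.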

How the data were processed

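Per the labels, RNA was extracted from IL tissue of single HS rats. By the study's methods and the submitters' processing notes, the authors trimmed single-end reads with cutadapt, estimated gene counts with RSEM on the Ensembl rat transcriptome (the notes list build Rnor 6.0), applied an upper-quartile adjustment with DESeq2 and dropped genes with few reads. The authors deposited log2 values of the adjusted count plus 1. Software versions are not given in the sources used here. Reads shared between similar genes are split by RSEM as estimates, and adjusted log2 values are no longer counts, so no count model was used. Adjusted counts were turned back from the log2 values and rounded. Values under 100 were whole numbers within 0.01 in 100.0% of cases. Depth was estimated by dividing the summed adjusted counts of a library by what 1 read was worth, which was read from the gaps among low values and lay within 1% of the truth in 95.0% of 40 simulated libraries. Intervals and counting SDs cover what they name only, since reads carry no molecular identifiers.

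Sex and rat batch came from the labels, and replicate numbers only name rats. A removal note in the labels kept 7 libraries out. No column was left over. Column runs were seen in the order of the column names, and no condition was inferred from them. Rats are separate animals. By the study's methods they were picked with the aim of keeping relatives out, and some pairs still looked closely related by genotype. Kinship entered no model here.

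Linear models were fitted to all 17252 genes with limma 3.58.1 (R 4.3.3, eBayes with an intensity trend), two-sided, with Benjamini-Hochberg adjustment over all genes tested and a threshold of 0.05. The 1 rat of batch 5 entered no test between batches. The counts between batches had sex as a covariate, those between sexes had batch and run, and co-variation had batch, sex and run. Pearson and Spearman coefficients were computed on residuals (Python 3.11.15, numpy 2.4.6, scipy 1.17.1), with 100000 permutations within column runs. On simulated data of 17252 genes, a shift of batch 6 by 1.5 residual SDs was recovered in 79.5% of 200 genes with 4 false calls, and an r of 0.5 in 81.0% of 200 with 7. The shift was tested between rat batches, and only these 200 genes were changed each time. The values do not give the recovery of batch given column run or of batches 6 and 4 within run 3. The Dixon criterion for single rats far from their group was applied to groups of 4 to 10 rats.

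The members and lists were chosen with earlier results of these data known. Named genes were the 6 members, up to 6 genes of each list with the smallest adjusted p for batch or for co-variation with Fkbp5, and per member the genes of highest and lowest r, of which the closest are printed. The reference matched 0 of the identifiers in the table. Symbols came from pairs of identifier and symbol given by the study, which named 3287 genes, 1 of them a member (Sgk1). The symbols of the other members rest on the list of identifiers, and all 6 symbols are in RefSeq. None of the 6 rows had values identical to another row.

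Alternatives were only genes with an average level of 5 or more, eBayes without a trend, a pseudocount of 10, median centring, quantile normalization, depth or the first 5 expression components as covariates, no covariates, leaving out the shallowest library or each batch, and single column runs. Alternatives added after the data were seen were Fosb and Mal as covariates, leaving out male 38, and the pairs of batches with their settings.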

Additional observations from a re-analysis of the deposited data

Results flagged for a closer look

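Among 24 groups of members' values with 4 to 10 rats, 2 held a rat far from the others, each in batch 3 of column run 1 (n = 7), and chance alone marks about 1 in 20 groups. For Nr3c1, female 7 had 1608 adjusted counts and the other rats had 1282 to 1413, so that the gap to the nearest rat was 0.571 of the range of log2 values in the group. For Nr3c2, female 35 had 151 where the rest ranged between 191 and 227, and the gap came to 0.576 of the range. The same female 7 had the lowest Tsc22d3 of batch 3 (915 adjusted counts), and female 35 had the lowest Sgk1 (653) and the highest Cdkn1a (416) of that batch.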

How the results depend on the processing

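All 6 members passed between rat batches, and all of the scalings, covariates and left-out batches gave 6 or a count within 1.5 times of it. Within run 1 the count was 0 and within run 3 it was 3. The 3 members that passed between batches given column run became 1 without batch 4 and 0 without batch 6. For the 1 that passed between runs given batch, a fit without batch 3 cannot decide, since it rests on 1 rat of batch 2 in run 2. Between batches 6 and 4 the 3 members became 0 in females, 0 in males and 0 with Fosb as a covariate, where Nr3c2 was at -0.0173 in females and -0.00312 with Fosb. No member passed between the sexes under any setting tried. The 2 co-varying pairs became 1 without batch 2, 0 without batch 3, 1 without batch 4, 0 within each of runs 1, 2 and 3, and 7 with no covariates. The fits within runs, batches or one sex held fewer rats.

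All pairs whose r changed sign were pairs that had not passed. Fkbp5 with Sgk1 was at 0.0038 after median centring, 0.0019 after quantile normalization, 0.10 without batch 3, 0.0284 without batch 4, 0.11 within run 3, 0.22 with no covariates and 0.0218 with 5 expression components. Nr3c1 with Tsc22d3 was at 0.0527 after median centring, 0.0058 after quantile normalization, 0.16 without batch 3, 0.0764 within run 3 and 0.0305 without male 38. Nr3c1 with Cdkn1a was at 0.0434 without batch 4 and 0.0585 within run 2. Nr3c1 with Sgk1 was at -0.12 within run 1, -0.0729 with no covariates and -0.15 with Fosb and Mal. Nr3c2 with Sgk1 was at -0.10 without batch 2, -0.34 within run 2, -0.12 within run 3 and -0.17 with no covariates. Sgk1 with Cdkn1a was at -0.0655 without batch 6, -0.16 within run 1 and -0.0193 with Fosb and Mal, and Tsc22d3 with Cdkn1a at -0.23 within run 1 and -0.0538 with Fosb and Mal. Fkbp5 with Tsc22d3 was at -0.0866 within run 1, Nr3c1 with Nr3c2 at -0.0156 within run 2 and Nr3c2 with Fkbp5 at 0.0474 without male 38. The cause of these changes was not tested.

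No paired analysis was possible because no rat appears in more than 1 library and a replicate number is just a name here. Batch 4 or 6 and column run 3 cannot be told apart from each other outside batch 3. The counting SDs, 1 value per gene, were at most 0.11 in log2 units. They are typical values and can be larger in a single rat with few reads.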
